A study of Mus musculus with 8 samples.

Results

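Interferon-stimulated genes encode the proteins with which a cell senses, tags and blocks viruses. This account follows 40 interferon-stimulated genes, some of them regulators of the response, chosen from a list of symbols, in cultured mouse T-cell progenitors with and without guides against STAT5. The list is meant to leave out GTPases and the IRF, STAT and MHC genes but holds Mx1 and Mx2, which are themselves dynamin-like GTPases. Symbols were matched to the first name in the annotation column of the count table, and 39 of the 40 were found among 24506 genes. Rnf213 was not analysed here. All 39 passed the filter on low counts, which left 13775 genes.

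In the textbook pathway, interferon binding activates the kinases JAK1 and TYK2, and a complex that holds STAT2 and IRF9 then enters the nucleus and binds a DNA element called the interferon-stimulated response element (ISRE). Interferon gamma acts through a different element, the gamma-activated site (GAS), whose core letters are also those of STAT5 sites. Many lymphoid and progenitor cells keep a low level of these RNAs without infection. STAT5A and STAT5B transmit signals of IL-7 and related cytokines, which developing T cells need for survival and growth.

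The cells came from bone marrow of mice on a B6 background that express Cas9 and a Bcl2 transgene, and carry a Bcl11b-mCherry reporter, so all 4 groups share these features. Age and number of animals were not given in the sources used here, nor whether replicate libraries came from separate animals or cultures, so each p-value reflects the spread among these libraries alone, which may be technical. Retroviruses carried control guides (sgControl) or 3 guides against Stat5a with 3 against Stat5b (together called sgStat5 here), and infected cells were grown for 6 days on OP9-DLL1 stroma, which presents a Notch ligand, in medium with 10 ng/ml of Flt3 ligand and as much IL-7. Lineage-negative, infected, CD25+ cells were then sorted as mCherry-negative (pre-commitment, the early gate) or mCherry-positive (post-commitment, the late gate), with 2 libraries in each of the 4 combinations of guide and gate. The series text once calls the post-commitment cells reporter negative, while the labels of those samples give them as positive, which is followed here. Sorted cells were bulk populations, in which a guide need not have disrupted every allele.

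Libraries held 22146490 to 31209177 counts. Levels are given as CPM, counts scaled to library size with TMM factors, and are listed in the order replicate 1, replicate 2. The targeted Stat5a stood at 258 and 257 CPM with control guides against 106 and 105 CPM with Stat5 guides before commitment, and at 257 and 238 against 116 and 107 CPM after it. Stat5b stood at 255 and 249 against 144 and 133 CPM, and at 280 and 255 against 154 and 135 CPM. All 10 listed T-progenitor markers were detected, with summed levels of 4357 to 8029 CPM. Fold changes are log2 values from edgeR's quasi-likelihood test with a standard error (SE), called at an adjusted p below 0.05 over all 13775 genes. Libraries of the same replicate number deviated together across genes (correlations of 0.421 to 0.578 between groups), so a fit with the replicate number as a block is given beside the fit without it.

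The genes form neighbourhoods. Of the 39, 16 lie within 100000 bases of another member. Ifit2, Ifit3 and Ifit1 lie together on chromosome 19 between 34550694 and 34650009 (mm10). Oas2, Oas3, Oas1g and Oas1a lie on chromosome 5 between 120730333 and 120907525, and Oasl2 and Oasl1 between 114896934 and 114937911. Parp14, Dtx3l and Parp9 lie on chromosome 16 between 35832878 and 35972621, and the Dtx3l and Parp9 transcripts overlap by 558 bases on opposite strands. Reads from that overlap cannot be assigned, because the counting names no strand. Reads of close paralogs such as Oas1a and Oas1g can also be shared. Dhx58 lies on chromosome 11, 76.5 kb from the start coordinate of the targeted Stat5b.

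Promoter windows were read to see which members carry the letters of the ISRE. RefSeq windows (GRCm38.p6, 250 bases before to 50 after the start site) were at hand for 30 of the 39 members, taking the start nearest to the counted transcript. The ISRE core was searched on both strands as GAAA, any 2 letters and GAAA again and was found in 13 of 30 windows (43.3%), against 3.44% of all 32851 windows of that length. The GAS core TTCNNNGAA, which reads the same on both strands, was found in 8 of 30 (26.7%), against 8.30% of all windows, and in 2 members it overlapped an ISRE match. The stretches around the ISRE matches that lie before the start site, in 9 members, are shown in the gene's direction, with every match in capitals, because these are the sequences the pathway is known to act through. A match is a description of letters, not of binding.
Isg15 (chr4:156200855-156200916, minus strand): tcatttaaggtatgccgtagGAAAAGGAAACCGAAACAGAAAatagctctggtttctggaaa
Ifit1 (chr19:34640765-34640833, plus strand): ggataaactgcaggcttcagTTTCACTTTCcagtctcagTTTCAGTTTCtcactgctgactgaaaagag
Ifit3 (chr19:34583353-34583436, plus strand): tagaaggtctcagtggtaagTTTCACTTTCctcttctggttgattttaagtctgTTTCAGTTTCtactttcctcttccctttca
Oas1a (chr5:120907526-120907565, minus strand): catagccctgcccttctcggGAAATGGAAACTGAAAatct
Oas1g (chr5:120887614-120887651, minus strand): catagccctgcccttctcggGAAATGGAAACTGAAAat
Oas3 (chr5:120777705-120777754, minus strand): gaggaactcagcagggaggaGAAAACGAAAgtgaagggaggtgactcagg
Rsad2 (chr12:26456543-26456592, minus strand): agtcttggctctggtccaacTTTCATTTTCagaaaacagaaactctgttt
Bst2 (chr8:71537567-71537622, minus strand): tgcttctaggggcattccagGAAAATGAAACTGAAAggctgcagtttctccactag
Trim30a (chr7:104465200-104465249, minus strand): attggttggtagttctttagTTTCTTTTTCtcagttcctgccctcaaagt

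Isg15 held 3 overlapping matches, and Oas1a and Oas1g held the same run of letters directly before their starts. In the 4 further members with a match, Ifih1, Ddx58, Eif2ak2 and Ifitm3, it lay only after the start site.

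Levels per transcript length spanned a wide range. On the authors' FPKM scale, the lowest mean in early control libraries was that of Mx2 (0.0680 ± 0.0141 SD, n = 2) and the highest that of Ifitm3 (214 ± 1.41), a membrane protein that blocks virus entry. Bst2 (tetherin), which holds budding virions at the cell surface, followed at 78.1 ± 6.66, and the secreted glycoprotein Lgals3bp at 49.2 ± 1.5. In early control libraries 8 members had a mean below 1 FPKM, against 1 in late sgStat5 libraries. The median of the members' mean FPKM was 5.80 with control and 9.56 with Stat5 guides in the early gate, and 9.0 and 15.95 in the late gate. The late sgStat5 group had the highest mean CPM of the 4 groups for 36 of 39 members, and the early control group the lowest for 35.

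**Figure D1:**
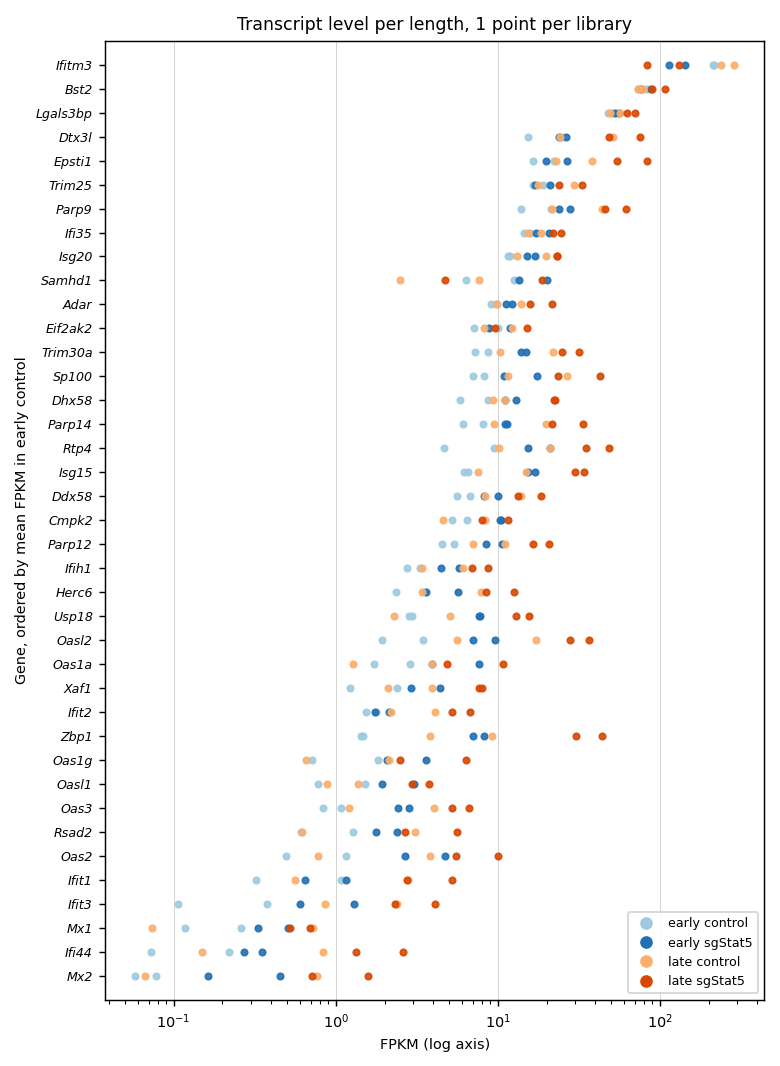
FPKM (log axis) of each member in each of the 8 libraries, 1 point per library, with genes ordered by their mean in early control. Ifitm3 and Bst2 lie at the top, and Mx2, Ifi44 and Mx1 at the bottom with values mostly below 1.

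**Figure D2:**
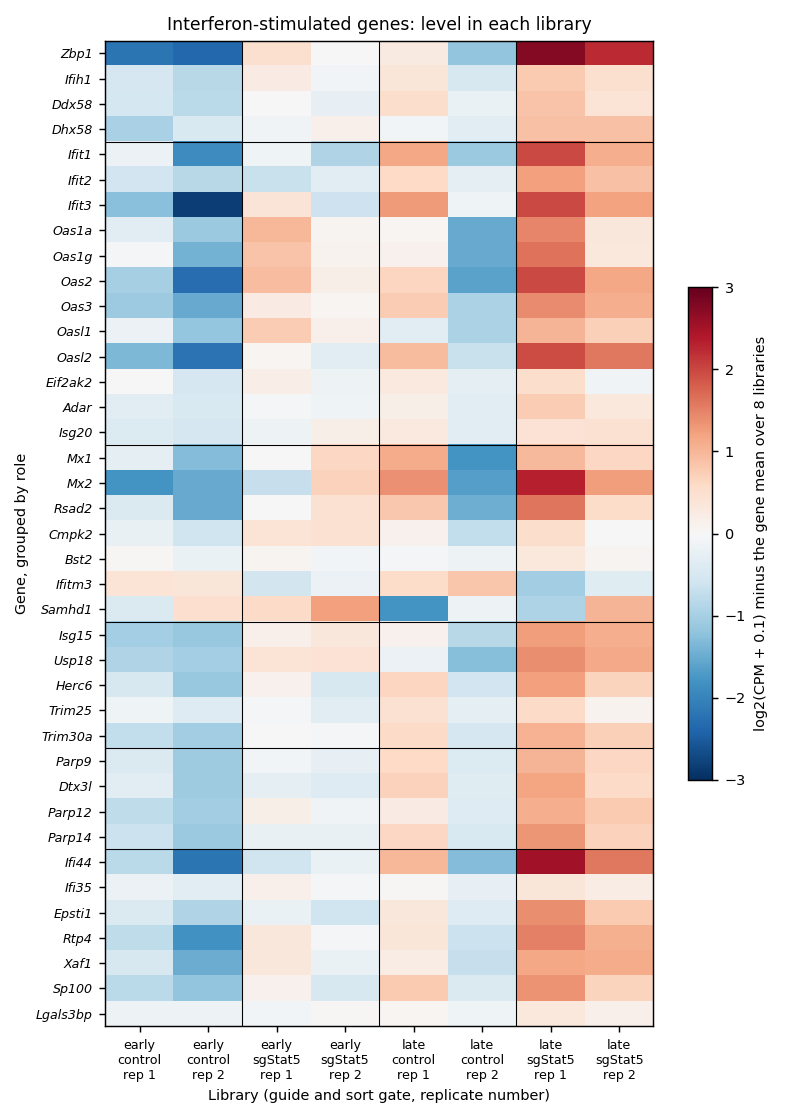
Level of each member in each library as log2(CPM + 0.1) minus the gene's own mean over the 8 libraries, with genes grouped by role and separated by black lines. The late sgStat5 columns are the reddest for most genes, Ifitm3 runs the other way, and late control replicate 1 is higher than replicate 2 for 37 of 39 genes.

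Before commitment, Stat5 guides went with higher levels of most members. Both sgStat5 libraries stood above both control libraries in 31 of 39 members, against 18.7% of all tested genes, and below both in 1, Ifitm3, against 19.4% of all genes. Members were chosen with earlier results of these data known. Counts of members beside shares of all genes, here and below, are therefore descriptive only. Estimates were above 0 for 38 members, with a median log2 fold change of 0.84, while the median over all genes was -0.00012. Without the block 0 members passed, where 0.123% of all genes were called higher. At an unadjusted p under 0.05, 15 members were higher and 1 lower. The share of all genes at unadjusted thresholds was not taken, here or below, so such counts have no background. With the block 10 rose and 1 fell, against 1.0% of all genes called higher and 1.33% lower. DESeq2 called 6 higher and 1 lower, among 247 genes called in either direction. More cells of a kind and more RNA per cell cannot be told apart in bulk libraries, nor can fewer cells and less RNA per cell.

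Among the sensors of foreign nucleic acid, Zbp1, which binds Z-form nucleic acid and can start cell death, had the largest blocked increase of the members that passed. It was at 2.79 and 2.47 CPM in early control and at 18.4 and 13 in early sgStat5 libraries. The groups lay far apart, with a blocked log2 fold change of 2.55 (SE 0.28, adjusted p = 0.00211; 0.149 without the block). Ifih1, which encodes the RNA helicase MDA5, was at 26.0 and 20.8 against 43.7 and 34.9 CPM (blocked 0.75, SE 0.15, adjusted p = 0.0381; 0.704 without the block). Neither Ddx58, which encodes RIG-I, nor Dhx58, which encodes LGP2, passed, although their groups did not overlap (0.55 and 0.73 without the block).

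Genes that bind or degrade viral RNA made up 12 members, of which 4 rose with the block and 9 had groups that did not overlap. Oas2, an oligoadenylate synthetase that activates the nuclease RNase L, was at 6.45 and 2.57 against 24.7 and 14.8 CPM (blocked 2.24, SE 0.34, adjusted p = 0.0112; 0.651 without the block). Its paralog Oas1a was at 7.71 and 4.47 against 19.8 and 10.4 CPM (1.29, SE 0.22, adjusted p = 0.0195; 0.834). Both values of each sgStat5 group exceeded both control values. Oasl2, a synthetase-like protein, was at 15.3 and 8.36 against 40.9 and 31 CPM (1.66, SE 0.27, adjusted p = 0.0165; 0.564). Ifit3, which helps IFIT1 hold viral RNA, was at 1.06 and 0.289 against 3.55 and 1.70 CPM (2.05, SE 0.39, adjusted p = 0.0295; 0.728), at counts of 27, 9, 79 and 46. Its neighbours did not follow it past the threshold. Ifit1 was at 4.01 and 1.16 against 4.18 and 2.4 CPM and Ifit2 at 10.0 and 8.39 against 9.44 and 12.0 CPM, so that the groups overlapped for both. Eif2ak2, which encodes the translation inhibitor PKR, overlapped too.

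Of the genes for the ubiquitin-like modifier ISG15 and for ubiquitin ligases, 2 of 5 rose with the block. Isg15 itself was at 7.01 and 6.40 against 15.9 and 18.2 CPM (1.36, SE 0.25, adjusted p = 0.0277; 0.239 without the block). Usp18, the protease that removes ISG15 from proteins and also restrains the interferon receptor, was at 7.40 and 6.88 against 18.7 and 19.0 CPM (1.41, SE 0.26, adjusted p = 0.0257; 0.272). Replicates of these genes stood close together within each early group. Trim25, the ligase that acts on RIG-I, was at 150 and 126 against 159 and 134 CPM, and its groups overlapped. In the group of 3 ADP-ribosyltransferase genes and the ligase gene Dtx3l, Parp12 passed, at 24.4 and 20.1 against 47.0 and 38.5 CPM (0.94, SE 0.12, adjusted p = 0.00475; 0.329). Parp9 and Parp14 also had groups that did not overlap, with blocked estimates of 0.59 and 0.68 that missed the threshold (adjusted p = 0.145 and 0.156). Of the remaining genes, Rtp4, a member of the receptor-transporter family, was at 21.0 and 10.1 against 45.2 and 34.0 CPM (1.42, SE 0.18, adjusted p = 0.00432; 0.560).

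Ifitm3 went the other way from the rest. It stood at 195 and 190 CPM in early control and at 101 and 130 CPM in early sgStat5 libraries. The groups did not overlap, and it fell by 0.76 with the block (SE 0.14, adjusted p = 0.0233; 0.484 without the block). Mx1, Mx2, Rsad2 (viperin) and the nucleotide kinase Cmpk2 gave higher estimates that did not pass, and Mx1 is known to be defective in most laboratory strains.

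These early-gate calls moved with single libraries. The number of calls over all tested genes changed in these fits too, but did not always follow the members' count. The same held for such counts in the late gate and between gates. Whether a shift in the members' count is particular to the members was not tested. Without early control replicate 1 the blocked count went from 10 to 2 members higher, without early control replicate 2 to 4, without early sgStat5 replicate 1 to 15 and without early sgStat5 replicate 2 to 5. Without late control replicate 1 or 2 it was 18 or 20. The fall of Ifitm3 was called in none of the blocked fits that left out early control replicate 1 or either early sgStat5 library.

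After commitment the same direction held and more members passed. Both sgStat5 libraries stood above both control libraries in 26 of 39 members, against 18.1% of all genes, and below both in 1, against 20.8%. Estimates were above 0 for 38 members, with a median of 0.92, against -0.016 over all genes. Without the block 2 rose, Zbp1 and Usp18, and 1 fell, Ifitm3, where 0.755% of all genes were called higher and 0.951% lower. With the block 26 rose and 1 fell, against 3.72% and 4.49% of all genes. DESeq2 called 9 higher and 1 lower, among 608 genes called in either direction. In fits without the block the median was 1.47 without late control replicate 1, 0.43 without late control replicate 2 and 0.57 without late sgStat5 replicate 1. With the block it was 1.01 over all libraries, and 1.25, 0.58 and 1.05 without these same libraries.

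Zbp1 stood at 15.9 and 5.68 CPM in late control and at 88.6 and 62.5 CPM in late sgStat5 libraries. It passed in both fits (2.81, SE 0.46, adjusted p = 0.0371 without the block; 2.91, SE 0.25, adjusted p = 0.000231 with it). Usp18 stood at 12.4 and 5.68 against 36.8 and 30.9 CPM, and also passed in both (1.91, SE 0.34, adjusted p = 0.0441; blocked 1.95, SE 0.26, adjusted p = 0.00202). Isg15 stood at 15.6 and 8.0 against 34.3 and 30.5 CPM, a rise in the blocked fit (1.49, SE 0.25, adjusted p = 0.00626; 0.0739 without it). In these genes each late sgStat5 library was above each control library by more CPM than the control replicates differed.

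All 4 sensors rose with the block. Dhx58 stood at 37.2 and 31.5 against 72.8 and 72.1 CPM (1.07, SE 0.17, adjusted p = 0.00495; 0.0521 without the block). Ddx58, at 96.5 and 58.1 against 122 and 88.9 CPM, passed with overlapping groups (0.47, SE 0.12, adjusted p = 0.0462; 0.561). The overlap came from late control replicate 1, which exceeded late sgStat5 replicate 2.

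Of the 12 RNA-binding and RNA-decay genes, 8 rose with the block. Oas2 stood at 20.6 and 4.23 against 51.9 and 29.0 CPM (1.95, SE 0.32, adjusted p = 0.00609; 0.414 without the block). Oas1a stood at 10.3 and 3.39 against 27.3 and 12.4 CPM (1.61, SE 0.22, adjusted p = 0.00260; 0.383), and Oas1g at 5.97 and 1.84 against 17 and 6.78 CPM (1.66, SE 0.28, adjusted p = 0.00633; 0.441). In these 3 synthetase genes replicate 1 stood above replicate 2 in both late groups, and both sgStat5 libraries stood above both controls. Oas3, Oasl1, Oasl2 and the RNA-editing enzyme gene Adar rose by 1.26, 1.54, 1.58 and 0.60 with the block. Ifit1, at 10.3 and 2.06 against 18.4 and 9.82 CPM, passed with the block despite overlapping groups (1.47, SE 0.37, adjusted p = 0.0429; 0.647). Ifit3 did not pass in this gate, with 6.62 and 2.42 against 10.9 and 6.27 CPM.

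All 4 genes of the ADP-ribosyltransferase group rose with the block. Parp12 stood at 49.5 and 31.7 against 89.2 and 71.8 CPM (1.01, SE 0.12, adjusted p = 0.00110; 0.129 without the block). Parp14, Parp9 and Dtx3l, which encodes the ubiquitin ligase that pairs with PARP9, rose by 0.90, 0.71 and 0.69 in the blocked fit. Of the 5 genes around ISG15 and ubiquitin, Herc6, the mouse ligase that attaches ISG15, and Trim30a rose by 0.91 and 0.81 beside Isg15 and Usp18, while Trim25 did not pass.

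Among the other genes, Epsti1 had one of the smallest blocked p-values of the family. It stood at 99.2 and 59.8 against 207 and 136 CPM (1.12, SE 0.10, adjusted p = 0.000236; 0.189 without the block), whereas its early groups overlapped at 58.4 and 42.2 against 67.9 and 52.2 CPM. Rtp4 stood at 45.9 and 22.6 against 102 and 74.6 CPM (1.43, SE 0.17, adjusted p = 0.00127; 0.254). Xaf1, which encodes an antagonist of the apoptosis inhibitor XIAP, and Sp100, a component of nuclear bodies, rose by 1.40 and 0.81 with the block. Ifi44 gave the estimate of 2.14 with an SE of 0.60 and did not pass.

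Ifitm3 stood at 216 and 261 CPM in late control and at 72.0 and 114 CPM in late sgStat5 libraries. It fell by 1.36 without the block (SE 0.23, adjusted p = 0.0371) and by 1.38 with it (SE 0.14, adjusted p = 0.000405), and it was the lone member below its controls in all 4 pairs of libraries. Samhd1, which depletes nucleotides that viruses need, stood at 13.5 and 42.4 against 24.8 and 96.8 CPM. Its groups overlapped, each sgStat5 library was above the control of its own number, and the rise passed with the block (1.06, SE 0.27, adjusted p = 0.0463; 0.614). Bst2 passed narrowly in the blocked fit (0.31, SE 0.08, adjusted p = 0.0498; 0.380). The 12 members that passed in neither fit in the late gate were Ifit2, Ifit3, Eif2ak2, the RNA exonuclease gene Isg20, Mx1, Mx2, Rsad2, Cmpk2, Trim25, Ifi35, Ifi44 and Lgals3bp. Rsad2 shows the overlap seen in several of them, with 16.4 and 3.29 against 28.5 and 13.7 CPM, as late control replicate 1 exceeded late sgStat5 replicate 2.

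**Figure D3:**
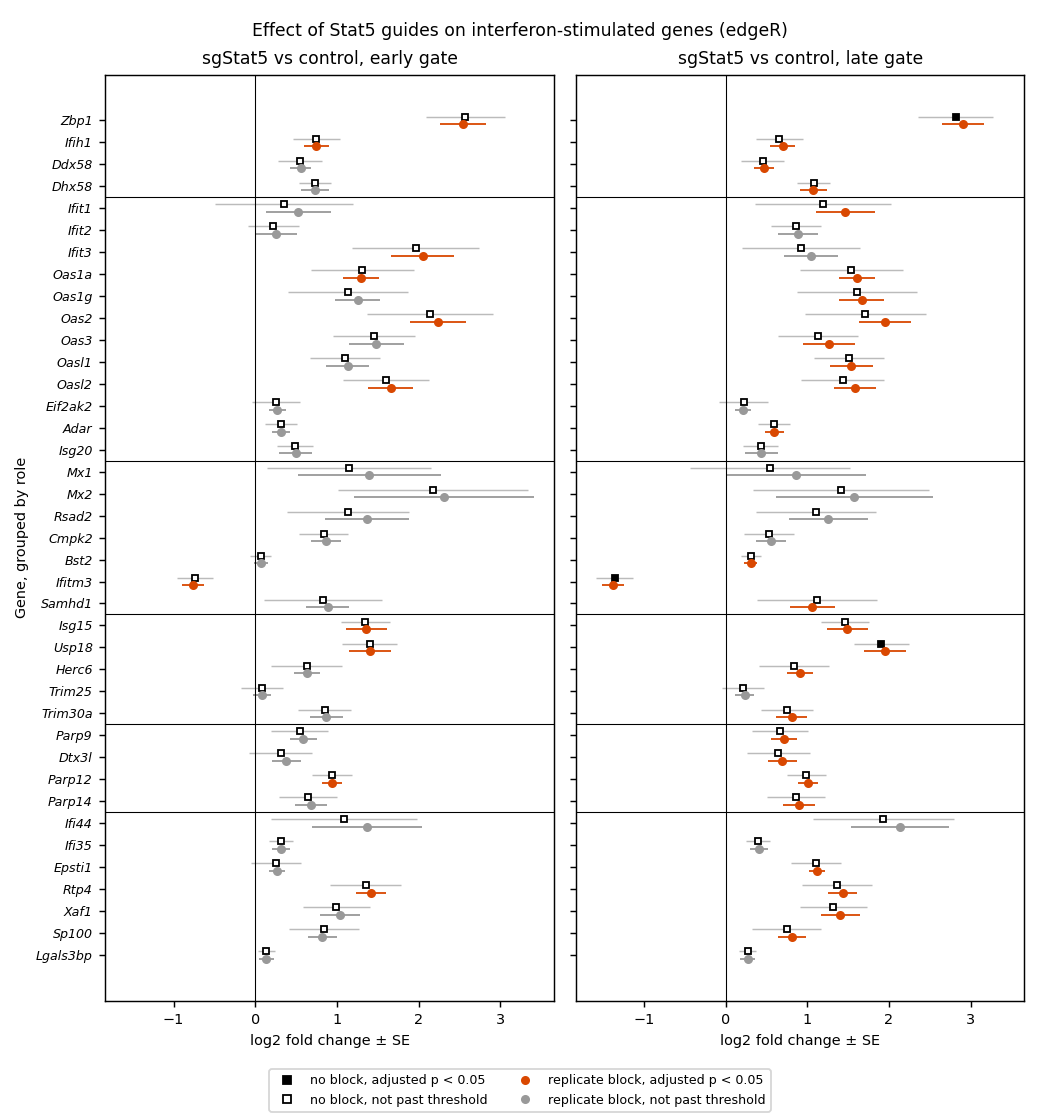
Log2 fold change ± SE of each member for sgStat5 against control in the early gate (left) and late gate (right), with squares for the fit without the replicate block and circles for the fit with it, filled black or orange where adjusted p was below 0.05. In the blocked fits 10 genes rose in the early gate and 26 in the late gate, and Ifitm3 fell in both.

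The late-gate calls also moved with single libraries. The blocked count of members higher went from 26 to 11 without late control replicate 2, 12 without late sgStat5 replicate 1 and 12 without late sgStat5 replicate 2. It was 26 without late control replicate 1, and 20 to 29 without 1 of the early libraries. Zbp1, Usp18 and Ifitm3 were called in each of these blocked fits. Without the block Zbp1 and Usp18 each lost the call without any of 6 libraries, the exceptions being the 2 late controls, and Ifitm3 lost it without any library but late sgStat5 replicate 2, with adjusted p for the 3 genes of up to 0.242, that of Usp18.

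Differences within pairs of libraries show how far the pattern repeats. In the pair of replicate 1 the members' median difference between sgStat5 and control was 0.65 log2 units in the early gate and 0.70 in the late gate, and in the pair of replicate 2 it was 0.93 and 1.19. Of 39 members, 36 were higher in the sgStat5 library in all 4 pairs. The exceptions were Ifitm3, lower in all 4, Ifit2, lower in 1 early pair (-0.08), and Mx1, lower in 1 late pair (-0.14). Of all tested genes, 48.6% and 49.0% were higher in the sgStat5 library of the early pairs, replicate 1 first. In the late pairs the shares were 48.9% and 47.2%. The replicate 2 pair gave the larger difference in 32 members in the early gate and 37 in the late gate. Shares of all genes were not taken for this count or for being higher in all 4 pairs.

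**Figure D4:**
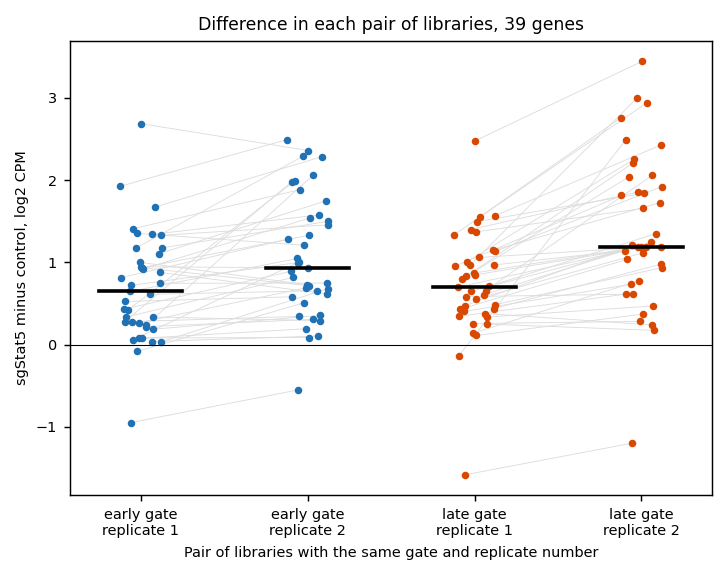
Difference in log2 CPM between the sgStat5 and control library of the same gate and replicate number for each of 39 genes, with a black bar at the median and grey lines joining a gene between replicate numbers. Most points lie above 0 in every pair, the medians run from 0.65 to 1.19, and the lowest point in each column is Ifitm3.

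Control libraries differed from each other as well. In late control, replicate 1 exceeded replicate 2 in 37 of 39 members, with a median of 1.01 log2 units, where 49.9% of all genes were higher in replicate 1. In early control it did so in 35, with a median of 0.37, in late sgStat5 in 36, with a median of 0.44, and in early sgStat5 in 25, with a median of 0.18. OP9 stromal markers moved with the replicate number too. Their summed level was 36.4 and 312 CPM against 0.674 and 247 CPM in the early groups, control first, and 129 and 529 against 154 and 451 CPM in the late groups, with Lum at 0 in all. The order runs opposite to that of most members, and the part of stromal RNA in these values was not tested.

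Whether the response to Stat5 guides differed between gates was tested as the difference of the 2 effects. No member passed, with or without the block, and 0.00% of all genes were called higher or lower. At an unadjusted p under 0.05, 0 members were found without the block, and 1 higher and 1 lower with it, by name Epsti1 and Ifitm3. DESeq2 also called 0 members. The blocked difference was 0.86 for Epsti1 (SE 0.14, adjusted p = 0.245), larger in the late gate, and -0.62 for Ifitm3 (SE 0.19, adjusted p = 0.644). In the fit without the block the median difference over members was 0.12, against -0.023 over all genes. In fits of that kind it was negative without early control replicate 1 (-0.21), late control replicate 2 (-0.28) or late sgStat5 replicate 1 (-0.12). With the block the medians without these same libraries were 0.12, -0.089 and 0.17. Of the 10 members that rose with the block in the early gate, 9 (90.0%) were among the 26 of the late gate (34.6% of those), and Ifit3 was the remaining member.

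Between gates most members stood higher after commitment, in both guide arms. In control cells 20 of 39 members had both late libraries above both early ones, against 24.6% of all genes, and the median log2 difference was 0.86, against 0.034 over all genes. Without the block 0 passed, where 0.0145% of all genes were called higher. At an unadjusted p under 0.05, 15 members were higher, and DESeq2 called 9 higher among 552 genes called in either direction. With the block 16 rose and 1 fell, Samhd1, against 6.64% and 4.30% of all genes. In sgStat5 cells 31 had groups that did not overlap, against 28.1% of all genes, and the median was 0.92. Without the block 0 passed, where 0.661% of all genes were called higher. At an unadjusted p under 0.05, 21 members were higher, and DESeq2 called 17 higher among 1620 genes called in either direction. With the block 25 rose and 0 fell, against 11.3% and 11.5% of all genes. At an unadjusted p under 0.05, that fit had 27 higher and 2 lower.

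Among members that passed, the largest blocked stage differences in control cells were those of Ifit3 (2.77, SE 0.38, adjusted p = 0.00454; 0.241 without the block), Oasl2 (2.00, SE 0.27, adjusted p = 0.00437; 0.213) and Zbp1 (1.91, SE 0.29, adjusted p = 0.00577; 0.205). Oasl2 stood at 15.3 and 8.36 CPM in early and at 75.8 and 24.8 CPM in late control libraries. In sgStat5 cells Epsti1 went from 67.9 and 52.2 to 207 and 136 CPM (1.49, SE 0.10, adjusted p = 8.73e-05; 0.0684 without the block). Ifit1 rose by 2.10 and Ifit2 by 1.52 in that arm with the block, the latter from 9.44 and 12.0 to 35.5 and 27.7 CPM. Samhd1 ran the other way in control cells, from 35.3 and 66.9 to 13.5 and 42.4 CPM (-1.0, SE 0.27, adjusted p = 0.0488; 0.616). Without late control replicate 1 the median in control cells was 0.18, and the blocked count went from 16 to 3. Without early control replicate 1 that count was 2, and without late control replicate 2 it was 24. In sgStat5 cells the blocked count of 25 went to 13 without early sgStat5 replicate 1 and to 15 without either late sgStat5 library.

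The genes upstream of the family were counted from a list of interferon ligands, receptors, kinases, factors, adaptors and feedback inhibitors, of which 25 were tested. In the early gate 1 rose without the block, Irf1, and 5 rose and 2 fell with it, against 1.0% and 1.33% of all genes. In the late gate 7 rose and 1 fell with the block, against 3.72% and 4.49% of all genes. Irf1, a factor induced by interferon gamma, rose by 0.69 in the early gate (adjusted p = 0.0308) and by 1.22 in the late gate (adjusted p = 0.00451), both without the block. Irf7, a factor for interferon genes and itself induced, stood at 10.5 and 8.0 against 26.4 and 18.5 CPM, and at 28.1 and 13.7 against 65.4 and 51.7 CPM (blocked 1.27 and 1.55). Irf9, the DNA-binding part of the ISRE complex, rose by 0.81 and 0.93 with the block, and Stat2, its partner, by 0.68 in the late gate.

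Interferon RNA itself was scarcely counted. Ifnb1, Ifna1, Ifna2, Ifna4, Ifnl2 and Ifnl3 had 0 counts in all 8 libraries, and Ifng reached 1.23 CPM at most, in late control replicate 1. Among receptor genes Ifngr1, which encodes a chain of the interferon gamma receptor, stood at 138 and 121 against 76.5 and 84.0 CPM before commitment, and at 423 and 292 against 218 and 172 CPM after it. Its level fell by 0.67 and 0.87 with the block (adjusted p = 0.0378 and 0.00470; 0.405 and 0.0950 without it). Of the feedback inhibitors Socs1 fell by 0.89 in the early gate and Socs3 rose by 0.95 and 1.30, all with the block.

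Markers of cell types rich in these RNAs were counted beside them. Of 5 plasmacytoid dendritic-cell markers, summed levels were 0.546 to 1.35 CPM in the early gate, and in the late gate 2.45 and 1.23 CPM with control guides against 22.5 and 8.21 CPM with Stat5 guides. Ccr9, which T-cell progenitors also express, gave 22.2 and 6.88 of the late sgStat5 values, while Siglech was at 0 in both of those libraries. Of this list 1 marker was called higher with the block in the late gate and 0 in the early gate, against 3.72% and 1.0% of all genes. The 10 macrophage, monocyte and granulocyte markers summed to 27.5 and 27.5 CPM in early control and 65.5 and 54.4 in early sgStat5 libraries. Most of these early sums was Mpo, at 21.7 and 17.8 against 55.8 and 32.1 CPM. In the late gate the list held 3.10 and 9.55 against 5.22 and 21.9 CPM. None of these markers passed in either gate with or without the block. The 4 conventional dendritic-cell markers summed to 16.4 to 25.1 CPM in the early and 1.88 to 4.41 CPM in the late gate, most of it Itgax. The 6 B-cell markers, with Ms4a1 at 0 in all, summed to 6.22 to 16.4 CPM. The 7 NK and innate lymphoid markers summed to 1213 and 1521 against 1364 and 1518 CPM in the early gate and to 874 and 1411 against 1709 and 1972 CPM in the late gate. Almost all of this was Gzma, a granzyme gene, which rose in the late gate with the block (0.72, SE 0.11, adjusted p = 0.00477; 0.265 without it), while the other markers of that list stayed at or below 1.53 CPM. The part of such cells in the differences was not tested.

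Markers of the T-cell progenitors themselves also moved with the guides. In the blocked fit 2 of 10 fell in the early gate, Il2ra (CD25) and Thy1, against 1.33% of all genes. In the late gate 5 rose and 2 fell, against 3.72% and 4.49% of all genes. CD25 and the Bcl11b reporter were also used to sort the cells. Those that fell after commitment were again Il2ra, at 2948 and 3075 against 1374 and 1886 CPM, and Thy1. The 5 that rose were Gata3, Tcf7, Bcl11b, the Notch target Hes1 and Ptcra, the pre-T-cell receptor alpha gene, which stood at 12.1 and 1.10 against 46.9 and 26.8 CPM (2.97, SE 0.53, adjusted p = 0.00923; 0.339 without the block). Without the block Il2ra alone of the 10 passed, in the late gate (-0.89, adjusted p = 0.0352). Bcl11b and Cd3g, like most members, were higher in replicate 1 of each group, for example at 542 and 219 and at 813 and 283 CPM in the late controls. The part of such a shift in the members' values was not tested.

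Members with and without the ISRE core were set side by side, as a description with no test. No window was at hand for Zbp1, Dhx58, Oas2, Mx1, Mx2, Usp18, Parp9, Parp14 and Rtp4, which are left out here. They include Zbp1, which had the largest blocked increase in both gates among members that passed. In the late gate the fit without the block gave a median log2 fold change of 0.92 for the 13 members with an ISRE core. It was 0.83 for the 17 members without an ISRE core. With the block 9 and 10 of them rose. In the early gate the medians were 0.85 and 0.63, with 4 and 2 that rose. Ifitm3, the member that fell, had 2 ISRE matches and 1 GAS match after its start, while Oasl2, which rose in both gates, had neither in its window. Isg15, with the 3 matches printed above, and Parp12, with none, both rose in both gates in the blocked fit.

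**Figure D5:**
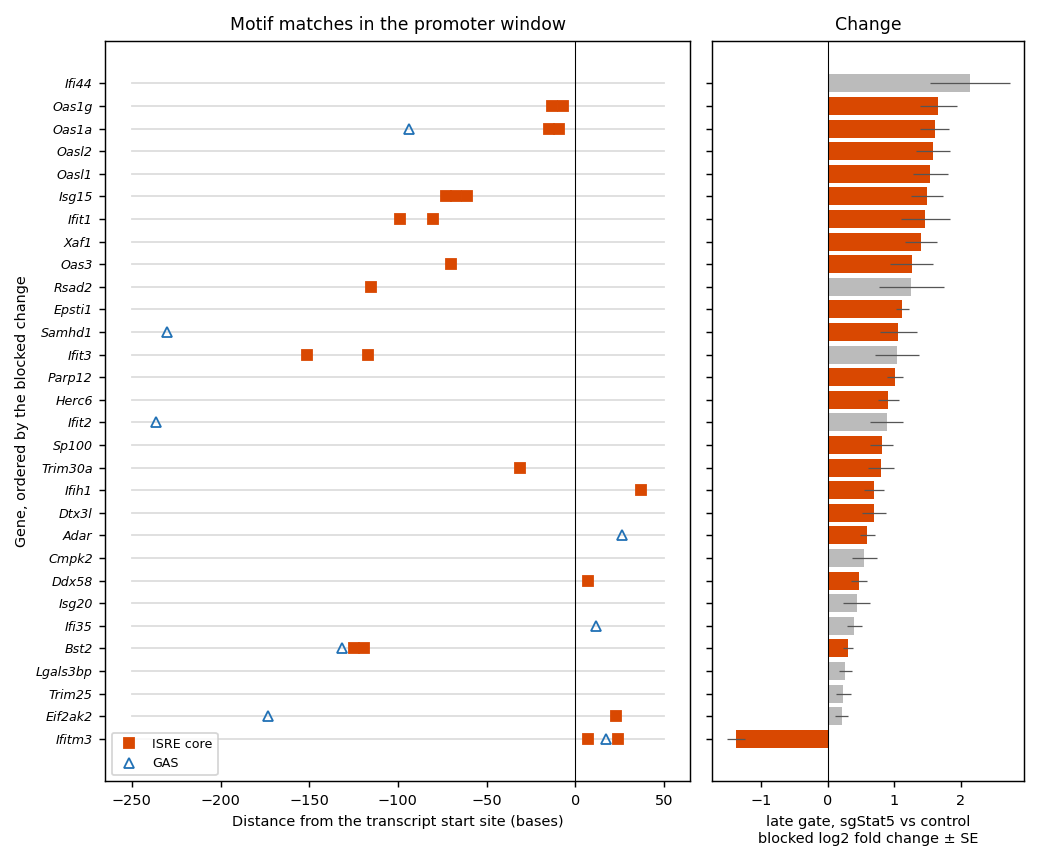
Left, positions of ISRE core (squares) and GAS (triangles) matches relative to the transcript start for the 30 members with a promoter window. Right, the blocked log2 fold change ± SE in the late gate, orange where adjusted p was below 0.05. Members with and without squares lie along the whole order of these 30 members, which do not include Zbp1. Ifitm3 at the bottom has squares after its start.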

How the data were processed

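Bulk RNA-seq libraries of 8 sorted samples were compared. Upstream tools, per the submitters' processing notes, were STAR 2.4.0, bcl2fastq 1.8.4 and RSEM 1.2.25, with GRCm38 (mm10) as the build. The counts deposited by the authors are, per the file headers, unadjusted tags that HOMER's analyzeRepeats counted in exons, condensed to 1 transcript for each gene. The deposited FPKM values were made by the authors with its length and depth scaling, per the file headers. Coordinates count from 1.

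Tests on the counts used edgeR 4.0.16, under R 4.3.3 (filterByExpr, TMM, 1 mean per group over all 8 libraries, quasi-likelihood F-test, two-sided, Benjamini-Hochberg). SE is the absolute log2 fold change over the square root of F. Within-pair values are log2 CPM with a prior count of 2. Residual degrees of freedom were 4, and 3 with the replicate block. The script was tested on simulated data. The replicate numbers come from the labels, which do not say what they share.

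Alternatives were the block, RLE size factors, no low-count filter, DESeq2 1.42.0, limma 3.58.1 on log2(FPKM + 1) and leaving out each library. Blocked fits without each library were added after seeing the data. All 39 members are named. Fold changes are printed for many of the members that passed in either fit, not always with SE and adjusted p. Estimates of some members that did not pass are given too. Members and lists were chosen with earlier results of these data known. Motifs were chosen after the files were seen. The result for 1 gene of the pathway list is not reported here.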

Additional observations from a re-analysis of the deposited data

How the results depend on the processing

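With 2 libraries a group, the number of members called moved with the processing. The replicate block gave 10 higher and 1 lower in the early gate, 26 higher in the late gate, 16 higher and 1 lower between gates in control cells, and 25 higher between gates in sgStat5 cells. DESeq2 gave 6 higher and 1 lower, 9 higher, 9 higher and 17 higher for the same 4 comparisons. Without the low-count filter 1, 5 and 8 members were higher in the early gate, in the late gate and between gates in sgStat5 cells. The limma fit gave 4 higher in the late gate, 1 higher between gates in sgStat5 cells and an early-gate median of 0.60. In the late gate the block, DESeq2, RLE size factors, the unfiltered fit and limma each called 1 lower, as reported. RLE size factors called as many members as TMM in all 5 comparisons. The difference between gates called 0 members in each alternative run.

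Leaving out each library in turn without the block gave 0 to 3 members higher in the early gate, 0 to 5 higher and 0 to 1 lower in the late gate, and between gates 0 to 3 higher with control guides and 0 to 10 with Stat5 guides. Medians ran from 0.60 to 1.02 in the early gate, 0.43 to 1.47 in the late gate, -0.28 to 0.69 for the difference, and 0.18 to 1.16 between gates in control cells. The late-gate estimate of Samhd1 ran from -0.18, without late sgStat5 replicate 2, to 2.20. Within late pairs of the same replicate number its difference was 0.87 and 1.19. The stage estimate of Oas2 in control cells ran from -0.070, without late control replicate 1, to 2.24. Within control pairs of the same replicate number it was 1.66 and 0.70. The causes were not tested.

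In blocked fits without, in turn, early control 1 and 2, early sgStat5 1 and 2, late control 1 and 2, and late sgStat5 1 and 2, members higher numbered 2, 4, 15, 5, 18, 20, 10 and 10 in the early gate and 20, 21, 29, 29, 26, 11, 12 and 12 in the late gate. Between gates they numbered 2, 12, 17, 17, 3, 24, 16 and 16 in control cells, while sgStat5 cells gave 24, 24, 13, 26, 25, 25, 15 and 15. Members lower numbered 0 to 1 in the early gate and in control cells, and in sgStat5 cells 1 without early sgStat5 replicate 2 and 2 without late sgStat5 replicate 2. The early-gate median was 0.54 without early sgStat5 replicate 2. The median difference was 0.37 without early sgStat5 replicate 2, 0.52 without late control replicate 1 and -0.089 without late control replicate 2. The stage median was 0.34 in control cells without late control replicate 1, and in sgStat5 cells 0.63 and 1.17 without early sgStat5 replicate 1 and 2. Where 1 library of a group was left, it was assumed to vary like the other groups.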
